A study of Mus musculus with 2 samples.

Results

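Acute-phase genes expressed in skin were followed as a set of 9, namely the serum amyloid A genes Saa1, Saa2 and Saa3, lipocalin 2 (Lcn2), haptoglobin (Hp), orosomucoid 1 (Orm1), inter-alpha-trypsin inhibitor heavy chain 4 (Itih4), peptidoglycan recognition protein 1 (Pglyrp1) and regenerating islet-derived 3 gamma (Reg3g). The set was taken by gene symbol from a deposited table of 44166 genes, and each of the 9 symbols matched 1 row. The genes were chosen by their FPKM levels in these same libraries, so the differences between libraries are given as a description with no test. The tissue was whole skin of C57BL/6 mice aged 3 days. One library came from mice of the genotype RNF31fl/fl-K14-cre, labelled KO, and 1 library from wildtype mice, labelled WT. Cre recombinase under the keratin 14 promoter acts in basal keratinocytes and their descendants, so the other cells of the skin are not its intended target. The sources used here state neither how many animals stand behind each library nor whether the wildtype mice carried a floxed allele or Cre.

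The acute-phase response is the change in plasma proteins that follows infection or tissue damage. Hepatocytes make most of these proteins, with interleukin 6 acting through STAT3 and interleukin 1 acting through NF-kB and C/EBP factors. Some of the same genes are also transcribed at the site of inflammation by epithelial cells, macrophages, adipocytes and neutrophil precursors, and several of the encoded proteins bind lipids, iron carriers or bacterial surfaces. Rnf31 encodes HOIP, which builds linear ubiquitin chains in signalling complexes upstream of NF-kB.

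Levels were measured as FPKM, fragments per kilobase of transcript scaled to library size, as deposited. The library labelled KO held 20511407 reads and the library labelled WT 19619928, of which 93.59% and 92.56% aligned. With 1 library per genotype there was no replicate spread and no test between genotypes, and a gene was called higher or lower past a 2-fold difference on the log2(FPKM + 1) scale. Intervals are exact 95% intervals on estimated fragments and cover counting error only, with no spread between animals or libraries. Without molecular identifiers a read is not an independent molecule, so the intervals may be too narrow even for counting error. Rnf31, the targeted gene, stood at 5.4 FPKM in the library labelled KO and 3.95 FPKM in the library labelled WT, a ratio of 1.36 (1.14 to 1.63). It was therefore not lower where its deletion was labelled, and genotypes are given as library labels throughout. Its FPKM covers the whole gene in every kind of skin cell, and Rnf31 overlaps Irf9 (15.1 against 6.91 FPKM), so loss of the floxed exons was not tested by it.

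Of the 9 genes, Saa3, Lcn2, Hp, Pglyrp1 and Saa2 were at least 2-fold higher in the library labelled KO, 0 were at least 2-fold lower, and Orm1 lay inside the rule on the lower side. Saa1, Itih4 and Reg3g stayed under 1 FPKM in both libraries, the floor for calling a gene, so 6 of the 9 could be called. Over all 14541 genes at or above that floor, 7.59% were called higher and 4.09% called lower by the 2-fold rule, so 65.0% of the calls were on the higher side. That split was 54.6% when the 50 most abundant genes were left out of the scaling, which shifted the median log2 ratio of all genes by -0.12. The scaling also decided the call of Saa2, the gene nearest to the threshold at a log2 ratio of 1.01, which came to 0.96 in that setting. Reg3g lay just inside it at 0.97. Past 4-fold, 3 of the 9 genes remained, Saa3, Lcn2 and Hp, where 2.04% of all genes were at least 4-fold higher. The median log2 ratio was 1.84 over the 6 genes above the floor, 1.01 over all 9, and -0.08 over all genes. Saa3 and Saa2, at 0.169 and 0.167 FPKM in the library labelled WT, passed the floor through the library labelled KO alone. Their calls as higher, and the median over the 6, are not free of that selection. Together the 9 genes made up 0.105% of the summed FPKM in the library labelled KO and 0.0206% in the library labelled WT.

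**Figure D1:**
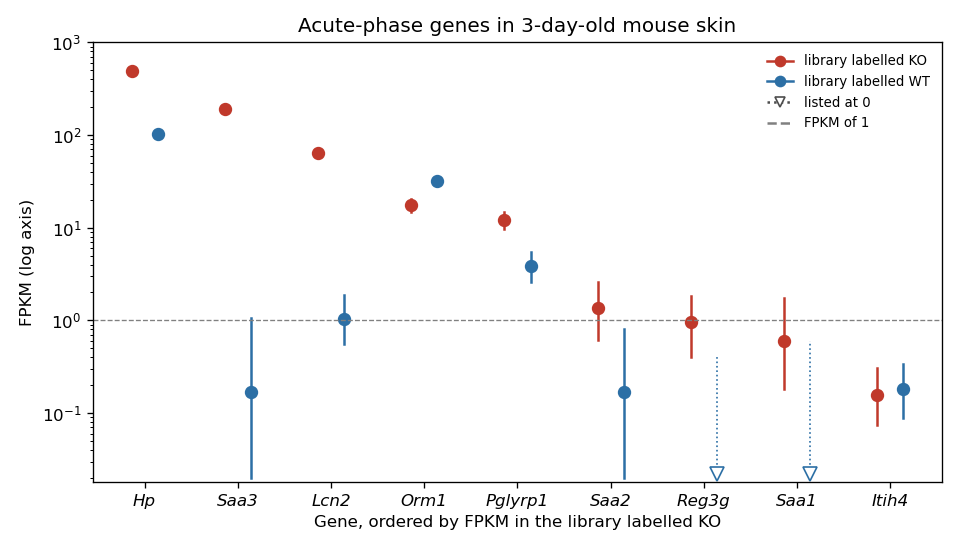
FPKM of the 9 acute-phase genes on a log axis, with the library labelled KO on the left and the library labelled WT on the right of each gene; bars are exact 95% counting intervals, cut at the lower edge of the plot, triangles mark genes listed at 0, and the dashed line is 1 FPKM. Hp, Saa3 and Lcn2 stand highest in the library labelled KO (491, 192 and 64.3 FPKM), Orm1 is the gene above 1 FPKM that is lower there, and the intervals of Saa2, Reg3g, Saa1 and Itih4 overlap between the libraries.

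**Figure D2:**
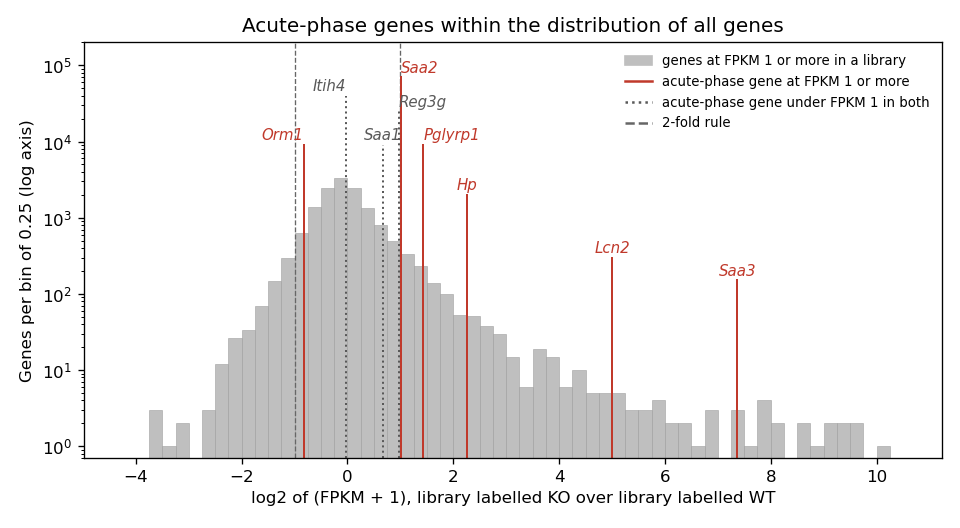
Histogram of the log2 ratio of (FPKM + 1), library labelled KO over library labelled WT, for 14541 genes, with genes per bin on a log axis, vertical lines at the 9 acute-phase genes and dashed lines at the 2-fold rule. Saa3 (7.37) and Lcn2 (5.0) lie in the sparse upper tail, while Itih4 (-0.03) lies in the centre and Orm1 (-0.83) on the lower shoulder.

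Serum amyloid A proteins are small lipid-binding proteins that circulate on high-density lipoprotein. In the mouse, Saa1 and Saa2 are the main liver genes and Saa3 is the form known from macrophages, adipose tissue and epithelia. Saa3 had 192 FPKM in the library labelled KO and 0.169 FPKM in the library labelled WT. It ranked 529 among all genes in the library labelled KO and 17673 in the library labelled WT, and its log2 ratio of 7.37 was number 20 from the top of the 14541 genes. The level in the library labelled WT corresponded to about 1 fragment against 959 in the library labelled KO, taking the coding transcript of 555 bases. The ratio of 1133 thus has a wide counting interval, 182 to 40141, which holds for that transcript length and covers no spread between animals. A longer Saa3 transcript of 2200 bases is annotated too, and had all fragments come from that one the estimates would be 6309 and 5.

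Saa2 and Saa1 were near the detection limit in both libraries. Saa2 had 1.35 FPKM in the library labelled KO and 0.167 FPKM in the library labelled WT, about 9 fragments against 1, a ratio of 8.06 with an interval of 1.29 to 408. Saa1 had 0.593 FPKM, about 4 fragments, in the library labelled KO and was listed at 0 in the WT-labelled library, where up to 0.598 FPKM is within the counting error of a 0, so no difference in Saa1 was detectable at this depth with the coding transcript of 609 bases. With the longest annotated transcripts, 2443 bases for Saa2 and 2446 for Saa1, the estimates would be 50 fragments against 6 for Saa2 and 22 against 0 for Saa1, and that limit would no longer hold. Within the library labelled KO, the level of Saa3 per length was 142 times that of Saa2 and 324 times that of Saa1. In the library labelled WT, Saa3 and Saa2 were at the same level, 0.169 and 0.167 FPKM or about 1 fragment each. The excess of Saa3 over the other genes of the family was thus seen in the library labelled KO.

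The family is a run of neighbouring genes. In GRCm38, Saa3 lies at chr7:46711998-46715700 on the minus strand, Saa1 at chr7:46740497-46742980 on the minus strand and Saa2 at chr7:46751790-46754313 on the plus strand. Saa4, the constitutive liver form, lies between Saa3 and Saa1 and had 0.0901 FPKM in the library labelled KO, and was listed at 0 in the WT-labelled library. The pseudogene Saa-ps was listed at 0 in both libraries. Saal1, the gene on the other side of Saa3 at a gap of 1.32 kb, was at 3.74 FPKM in the library labelled KO and 5.69 FPKM in the library labelled WT, a ratio of 0.657. Among the genes of the cluster Saa3 thus had the largest log2 ratio, 7.37, against 1.01 for Saa2 and 0.67 for Saa1. Saa2 and Saa1 were near the detection limit, where the pseudocount understates differences, and the ratio of Saa2 had an interval of 1.29 to 408.

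**Figure D3:**
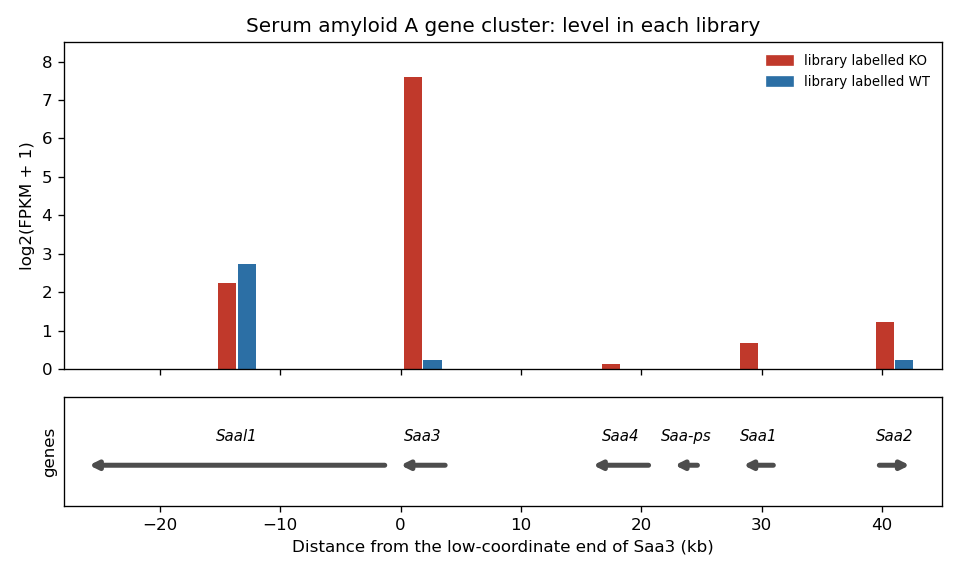
Level of each serum amyloid A gene as log2(FPKM + 1), library labelled KO left and library labelled WT right, above a map of the cluster in kb from the low-coordinate end of Saa3, with arrows in the direction of transcription. The bar of Saa3 in the library labelled KO (192 FPKM) exceeds those of Saa1 and Saa2 (0.593 and 1.35 FPKM), and Saal1 is the gene with the taller bar in the library labelled WT.

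Reads can be shared between near-identical copies, and the coding sequences show where that matters. Saa1 and Saa2 are 95.1% identical over 366 coding bases, whereas Saa3 is 75.9% identical to Saa1 and 74.9% to Saa2. Of the 50-base windows of each transcript, 14.8% of Saa1 and 9.12% of Saa2 also occur in a transcript of another gene, against 1.78% of Saa3. The split between Saa1 and Saa2 is therefore uncertain, while the level of Saa3 rests on sequence that is mostly its own. The stretch from coding base 268 to 327, the 60-base stretch aligned without gaps in which Saa3 differs most from Saa1, is shown from the GENCODE transcripts with capitals at bases that differ from Saa1, 2 in Saa2 and 18 in Saa3.
Saa1: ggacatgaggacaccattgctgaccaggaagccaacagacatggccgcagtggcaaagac
Saa2: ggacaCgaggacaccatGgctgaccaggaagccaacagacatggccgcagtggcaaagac
Saa3: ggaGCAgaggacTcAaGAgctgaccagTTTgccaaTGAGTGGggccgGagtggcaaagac

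Promoter sequence was compared because genes that share a cluster and a family differed so much in level. RefSeq promoters of build GRCm38.p6, 250 bases before to 50 bases after the transcription start, were found for 7 of the 9 genes, namely Itih4, Lcn2, Pglyrp1, Reg3g, Saa1, Saa2 and Saa3. The C/EBP motif TTGCNNAA, searched on both strands, occurred in 4 of the 7, the 3 serum amyloid A genes and Lcn2, and in 10.8% of all 32851 promoters. The longer form ATTGCNNAA, which contains the shorter one, occurred in Saa1 and Saa2 and in 2.18% of all promoters. The promoter sequences of Saa1 and Saa2 are near copies of each other, so their matches are not independent in these counts. In the library labelled KO these 2 genes were at 0.593 and 1.35 FPKM, and Saa3, which holds the shorter form only, was at 192 FPKM. In Saa1 and Saa2 the shorter motif starts 182 and 183 bases before the start, in Saa3 it starts 99 bases before it on the opposite strand, and in Lcn2 216 bases before it. The 4 promoters are shown with the C/EBP matches in capitals. A match is a description of the letters and no evidence of binding.
Saa3, chr7:46715627-46715926, minus strand: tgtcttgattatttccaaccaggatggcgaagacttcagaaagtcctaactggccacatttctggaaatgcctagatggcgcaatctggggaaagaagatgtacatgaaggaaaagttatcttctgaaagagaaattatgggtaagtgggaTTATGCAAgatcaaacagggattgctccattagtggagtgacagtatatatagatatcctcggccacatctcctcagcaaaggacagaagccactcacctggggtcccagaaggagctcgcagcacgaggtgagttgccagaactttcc
Saa1, chr7:46742931-46743230, minus strand: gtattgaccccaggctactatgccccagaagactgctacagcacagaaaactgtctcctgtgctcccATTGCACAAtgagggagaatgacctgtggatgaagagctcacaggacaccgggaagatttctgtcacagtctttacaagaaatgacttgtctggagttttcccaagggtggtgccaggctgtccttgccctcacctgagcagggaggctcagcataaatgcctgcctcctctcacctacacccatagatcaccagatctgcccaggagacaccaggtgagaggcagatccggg
Saa2, chr7:46751583-46751882, plus strand: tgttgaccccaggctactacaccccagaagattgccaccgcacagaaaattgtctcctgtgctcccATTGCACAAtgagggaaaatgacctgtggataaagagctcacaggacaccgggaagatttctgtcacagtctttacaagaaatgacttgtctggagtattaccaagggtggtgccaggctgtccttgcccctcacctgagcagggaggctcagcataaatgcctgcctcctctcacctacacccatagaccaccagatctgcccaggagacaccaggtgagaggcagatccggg
Lcn2, chr2:32387690-32387989, minus strand: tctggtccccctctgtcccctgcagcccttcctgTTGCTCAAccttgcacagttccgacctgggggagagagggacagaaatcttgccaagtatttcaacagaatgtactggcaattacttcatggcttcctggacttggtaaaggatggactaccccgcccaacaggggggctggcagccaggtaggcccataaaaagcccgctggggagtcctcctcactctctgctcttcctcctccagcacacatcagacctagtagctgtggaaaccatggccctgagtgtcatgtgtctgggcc

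The NF-kB consensus was found on either strand in 2 of the 7 promoters, those of Pglyrp1 and Reg3g, and in 8.46% of all promoters. It starts 93 bases before the start of Pglyrp1 and 123 bases before that of Reg3g. The STAT3 motif TTCNNNGAA was found in Itih4, 51 bases before the start, and in 8.3% of all promoters. TATAAA was found on either strand in Itih4 and Reg3g and in 13.6% of all promoters, and in Reg3g 1 match lies on the coding strand 27 bases before the start. Lcn2 and Saa3, the genes with the largest ratios, hold neither the NF-kB consensus nor the STAT3 motif in this window, from which nothing follows about these factors.

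The antimicrobial members were led by Lcn2, whose protein binds bacterial siderophores and so withholds iron. Lcn2 (chr2:32384633-32388252, minus strand) had 64.3 FPKM in the library labelled KO and 1.05 FPKM in the library labelled WT, about 714 fragments against 12. The ratio was 61.5 with an interval of 34 to 116, and its log2 ratio of 5.0 was number 44 from the top of all genes. None of its 50-base windows occurs in another gene, and its counting intervals in the libraries (59.7 to 69.2 and 0.556 to 1.88 FPKM) lie far apart. It was the one gene of its numbered Lcn family above the floor, the other 9 genes in the table being listed at 0 in both libraries.

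Pglyrp1, a peptidoglycan-binding protein of neutrophil granules that kills bacteria, had 12.1 FPKM in the library labelled KO and 3.86 FPKM in the library labelled WT. The ratio was 3.14 (2.05 to 4.97), from about 89 fragments against 29. Its annotated span, chr7:18871331-18890459 on the plus strand, is long because noncoding transcripts start far upstream of the coding one. Its relatives Pglyrp3 and Pglyrp4, which are expressed in epithelia including skin, were at 6.54 against 0.0722 FPKM and at 17.1 against 1.03 FPKM in the libraries labelled KO and WT. The ratio of Pglyrp4 was 16.6 (11.9 to 24.7), so its interval lies above that of Pglyrp1. Pglyrp2, the liver amidase of the family, stayed under 0.2 FPKM in both libraries (0.0418 and 0.108).

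Reg3g encodes a secreted lectin that binds Gram-positive bacteria and is best known from the intestine. It had 0.963 FPKM, about 8 fragments, in the library labelled KO and was listed at 0 in the WT-labelled library. With the coding transcript of 771 bases, the counting interval in the library labelled KO was 0.399 to 1.82 FPKM. Its lower end overlaps the 0.419 FPKM that a 0 allows in the library labelled WT. Such an overlap does not settle whether the levels differ, and no ratio is given against a 0. With the longest annotated transcript of 2089 bases the estimates would be 30 fragments against 0, which lies clear of that overlap. Reg3g lies at chr6:78466269-78468872 on the minus strand, beside other Reg genes. Reg1, a gene of the same chromosome region known from the pancreas, was at 2.64 FPKM in the library labelled KO, about 29 fragments, and listed at 0 in the WT-labelled library. Reg2, Reg3a and Reg3d were listed at 0 in both libraries, and Reg3b and Reg4 were listed at 0 in the KO-labelled library and stood at 0.259 and 0.0717 FPKM in the library labelled WT.

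The plasma transport proteins of the set did not move together. Hp, whose protein binds free haemoglobin, was the most abundant of the 9 genes in both libraries. It had 491 FPKM in the library labelled KO and 102 FPKM in the library labelled WT, a ratio of 4.82 with a narrow interval of 4.58 to 5.06 from about 9024 fragments against 1851. Hp (chr8:109575128-109579172, minus strand) ranked 233 among all genes in the library labelled KO and 915 in the library labelled WT. It made up 63.0% of the summed FPKM of the 9 genes in the library labelled KO and 73.2% in the library labelled WT, while Saa3 made up 24.6% and 0.122%.

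Orm1, which encodes an abundant carrier glycoprotein of plasma, was on the other side. It had 17.5 FPKM in the library labelled KO and 31.9 FPKM in the library labelled WT, a ratio of 0.548 with an interval of 0.445 to 0.668, and a log2 ratio of -0.83 inside the 2-fold rule. Orm1 (chr4:63344560-63348163, plus strand) lies beside Orm3 and Orm2, to which it is 86.0% and 89.9% identical over the coding sequence, and 20.4% of its 50-base windows occur in them. Orm2 was at 0.549 FPKM in the library labelled KO and 2.1 FPKM in the library labelled WT, a ratio of 0.262 (0.0781 to 0.741), and Orm3 was listed at 0 against 0.221 FPKM. All 3 orosomucoid genes thus had the lower value in the library labelled KO, with their split uncertain. For Orm3 this was about 0 fragments against 2, with a ratio interval of 0 to 5.42, so no difference in Orm3 was detectable. In the library labelled WT the level of Hp per length was 3.2 times that of Orm1, and in the library labelled KO it was 28.1 times.

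Itih4 encodes a plasma protein cleaved by kallikrein and is transcribed mainly in liver. It had 0.158 FPKM in the library labelled KO and 0.18 FPKM in the library labelled WT, about 9 fragments against 10, and the ratio of 0.877 had an interval of 0.314 to 2.39. Itih4 (chr14:30886476-30901981, plus strand) was thus present at trace level in both libraries, with no difference detectable at this depth. Its neighbours Itih3 and Itih1 were at 0.182 against 0.0328 FPKM and listed at 0 in both libraries.

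Ordered by level in the library labelled KO, the genes ran Hp, Saa3, Lcn2, Orm1, Pglyrp1, Saa2, Reg3g, Saa1 and Itih4. The counting intervals of Orm1 (14.8 to 20.4 FPKM) and Pglyrp1 (9.72 to 14.9 FPKM) meet only at their ends. Those of Saa2, Reg3g and Saa1 overlap widely, and that of Itih4 overlaps that of Saa1, so the order among these 4 is within the counting error of neighbours. In the library labelled WT the order was Hp, Orm1, Pglyrp1, Lcn2, Itih4, Saa3 and Saa2, with Saa1 and Reg3g listed at 0. The intervals of Hp, Orm1, Pglyrp1 and Lcn2 are separate from each other there, while those of Saa3 and Saa2 overlap both Lcn2 and Itih4. Saa3 and Lcn2 thus stood above Orm1 in the library labelled KO and below it in the library labelled WT.

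Markers of the cells that could carry these transcripts were read beside them. In whole tissue, fewer cells of a type and less RNA per cell cannot be told apart. Hepatocyte markers were nearly absent, with a summed level of 5.4 FPKM over 15 genes in the library labelled KO and 4.36 FPKM in the library labelled WT. Albumin (Alb) was at 0.938 and 0.96 FPKM in these libraries, Serpina1a, Serpina1c, Tat, Hnf4a and Fgb were listed at 0 in both, and Apoc3 alone reached 1 FPKM (2.32 and 1.4). The levels of Hp, Saa3 and Lcn2 therefore stood beside almost no liver transcript in either library.

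Of the 16 neutrophil markers, 11 were above the floor, 9 were higher and 0 lower, where 7.59% of all genes above the floor were higher. Of the higher ones, Ltf, Ngp, Retnlg, Mmp8, Mmp9, Cd177 and Stfa2l1 passed the floor through the library labelled KO alone. The summed level of the 16 markers was 4792 FPKM in the library labelled KO and 24.4 FPKM in the library labelled WT, mostly from S100a8, S100a9 and Stfa2l1. Activated keratinocytes make S100a8 and S100a9 too. The remaining 13 summed to 53.8 and 7.34 FPKM. Retnlg (26.2 FPKM) and Ngp (6.37 FPKM) were listed at 0 in the WT-labelled library, and Ltf, the lactoferrin gene of the same secondary granules that hold lipocalin 2, was at 1.99 and 0.0235 FPKM. The granule genes Elane (0.215 and 0.204 FPKM), Mpo (0.067 and 0.207 FPKM) and Prtn3 (3 and 3.22 FPKM) did not share this pattern. Camp (6.38 and 3.53 FPKM) was inside the 2-fold rule, and Ly6g was listed at 0 in both libraries. The part of neutrophils in the levels of Lcn2 and Pglyrp1 was not tested. Macrophage and monocyte markers were higher in 9 of the 11 above the floor and lower in 0, summing to 565 FPKM over 12 genes in the library labelled KO and 219 FPKM in the library labelled WT, and none was listed at 0. Examples are Ly6c2 (5.37 and 0.111 FPKM), Itgam (2.93 and 0.331 FPKM) and C1qb (152 and 54.5 FPKM). Ly6c2, Itgam and Fcgr1 (4.4 and 0.8 FPKM) passed the floor through the library labelled KO alone. The part of macrophages and monocytes in the level of Saa3 was not tested.

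Adipocyte markers, which matter because fat tissue transcribes Hp, Orm1 and Saa3, lay on the lower side. All 9 had the lower value in the library labelled KO, 2 of them past the 2-fold rule, Adipoq (75.7 and 169 FPKM) and Lep (1.27 and 4.72 FPKM), and none was listed at 0. Past the same rule, 4.09% of all genes above the floor were lower. For Cfd (436 and 438 FPKM) the ratio of 0.994 had an interval of 0.955 to 1.03, so no difference was detectable. The summed level of the 9 markers was 1544 FPKM in the library labelled KO and 2177 FPKM in the library labelled WT, with a median log2 ratio of -0.65. Hp and Saa3 were higher in the library in which these markers were lower, and Orm1 was lower with them. The part of adipocytes in the levels of Hp, Saa3 and Orm1 was not tested. The tissue label was checked against keratinocyte markers, all 10 of which were above the floor, from 18.9 FPKM (Dsg3) to 12590 FPKM (Krt14) in the library labelled KO and from 4.87 to 1121 FPKM in the library labelled WT. Their summed level was 24578 FPKM in the library labelled KO and 5148 FPKM in the library labelled WT. Of the 10 markers, 5 were higher and 2 lower, where 7.59% and 4.09% of all genes above the floor were. The higher ones were Krt14 (ratio 15.4), Krtdap (6.26), Col17a1 (4.16), Dsg3 (3.88) and Krt5 (2.86), and their part in the levels of the 9 genes was not tested. Krt10 (188 and 678 FPKM) and Krt15 (97.1 and 226 FPKM) were the lower ones.

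The cytokines known to induce acute-phase genes differed in kind. Interleukin 6, the main hepatic inducer, was at 0.144 FPKM in the library labelled KO and 0.0274 FPKM in the library labelled WT, under the floor in both. Of the 19 ligand genes 9 were above the floor, and 7 of these were higher and 0 lower, where 7.59% of all genes were higher. The median log2 ratio was 4.07 over those 9 and 0.84 over all ligands with a value above 0 in either library. Only Il1f6 and Il1f9 reached 1 FPKM in the library labelled WT, so the other 7 passed the floor through the library labelled KO alone, which raises the median over the 9. The higher ones were Il33, Il24, the interleukin 36 genes Il1f6, Il1f8 and Il1f9, Il19 and Il1b. Il1b, an inducer of NF-kB and C/EBP activity, was at 4.56 and 0.172 FPKM, and Il1f9 (interleukin 36 gamma) at 84.2 and 1.4 FPKM in the libraries labelled KO and WT. The STAT3-activating cytokine gene Il24 was at 18.8 FPKM in the library labelled KO and listed at 0 in the WT-labelled library, and Il19 was at 6 and 0.0983 FPKM. Il17a, Il17f and Il22, which induce Lcn2 and Reg3g in epithelia, were listed at 0 in both libraries. Osm, a relative of interleukin 6, was at 0.926 and 0.0306 FPKM, just under the floor.

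Of the receptor subunits for these cytokines 16 of 17 were above the floor, with a median log2 ratio of 0.58 over these and 0.55 over all with a value above 0 in either library. Osmr, the oncostatin M receptor, was at 9.11 FPKM in the library labelled KO and 1.69 FPKM in the library labelled WT, a ratio of 5.38 (4.51 to 6.47). Il17rc was also higher (88.3 and 34.2 FPKM), and Il11ra1 was lower at the edge of the rule (64.8 and 131 FPKM), inside it when the libraries were scaled by the median of ratios. The 13 others were inside the rule. Among intracellular mediators, 17 of 19 were above the floor, 8 were higher and 0 lower, and the median log2 ratio was 1.0. The shares over all genes above the floor were 7.59% higher and 4.09% lower.

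The higher mediators were transcription factors and feedback regulators of the acute-phase pathways. Socs3, the feedback inhibitor of interleukin 6 family signalling, was at 34.7 FPKM in the library labelled KO and 6.18 FPKM in the library labelled WT, a ratio of 5.61 (4.87 to 6.47). Stat3, the transcription factor of that pathway, was at 51.6 and 19 FPKM. Of the C/EBP genes, Cebpd was higher (12 and 2.9 FPKM, ratio 4.12), whereas Cebpb (294 and 202 FPKM) and Cebpa (138 and 148 FPKM) were inside the rule. The NF-kB regulators Nfkbiz, a co-activator known for the induction of Lcn2, and Bcl3 were at 8.99 against 1.73 FPKM and at 14.8 against 2.97 FPKM. Nfkbia and Zc3h12a, which limit NF-kB signalling and cytokine mRNA, were higher too, with ratios of 2.47 and 3.02. The liver factor Hnf4a was listed at 0 in both libraries.

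**Figure D4:**
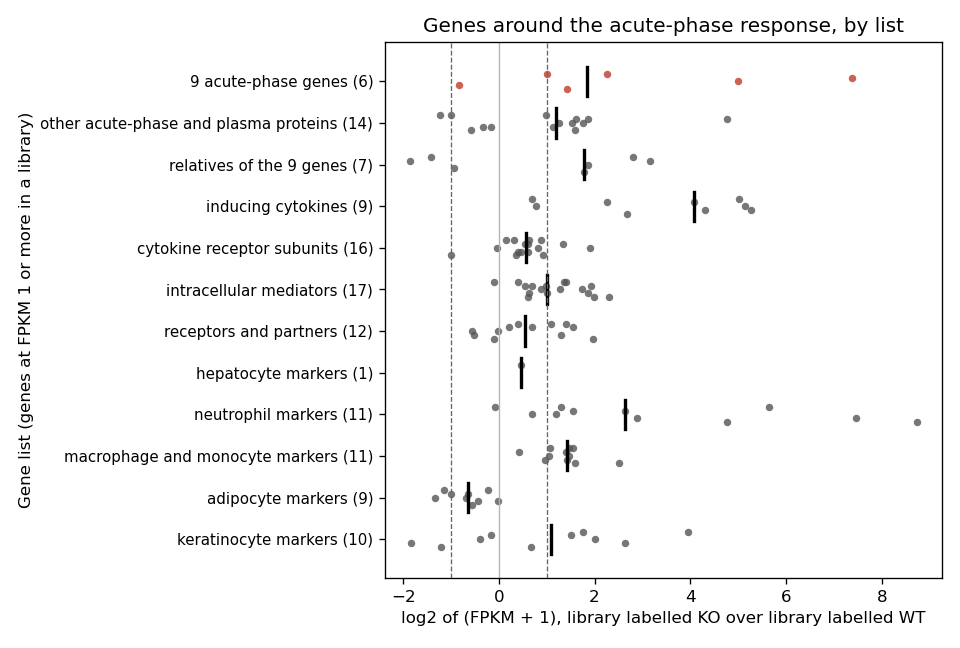
Log2 ratio of (FPKM + 1), library labelled KO over library labelled WT, of the genes above the floor in each list, with 1 point per gene, the number of genes in brackets, black bars at the medians and dashed lines at the 2-fold rule. Most cytokine and neutrophil genes passed the floor through the library labelled KO alone, so their medians (4.07 and 2.64) are not comparable with those of the other lists. Saa3 and Saa2 among the 9 acute-phase genes passed it in the same way. All 9 adipocyte markers were above the floor and lie below 0 (median -0.65), though Cfd is at -0.01.

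Genes for receptors and partners of the encoded proteins were higher in 5 of the 12 above the floor and lower in 0, with a median log2 ratio of 0.55. Over all genes above the floor, 7.59% were higher. Of the higher ones here, Fpr1, Fpr2 and Ltf (1.99 and 0.0235 FPKM) passed the floor through the library labelled KO alone. With a floor of 5 FPKM, 2 genes stayed higher and the median was -0.02. Fpr2, a formyl peptide receptor that binds serum amyloid A, was at 2.92 FPKM in the library labelled KO and listed at 0 in the WT-labelled library, and so was Fpr1 at 1.47 FPKM. Cd163, the macrophage receptor for haptoglobin bound to haemoglobin, was at 9.2 and 2.84 FPKM, a ratio of 3.23 (2.75 to 3.82). Hmox1, which breaks down the haem so taken up, was at 51.3 and 23.6 FPKM, a ratio of 2.17. The lipocalin 2 receptor gene Slc22a17 was at 9.45 and 14.5 FPKM, inside the rule, and Lrp2 was under 0.03 FPKM in both libraries (0.00427 and 0.0213). Extl3, reported as a receptor for Reg3 proteins, was at 17 and 17.3 FPKM.

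Other acute-phase and plasma protein genes divided into a group with values in skin and a group listed at 0 or near it. Of 31 such genes 14 were above the floor, 8 of them higher and 1 lower, where 7.59% and 4.09% of all genes were. The median log2 ratio was 1.19 over the 14 and 0.26 over all with a value above 0 in either library. Serpina3n, a protease inhibitor, had the largest difference, at 138 FPKM in the library labelled KO and 4.1 FPKM in the library labelled WT, a ratio of 33.7 (28.1 to 40.5). Lrg1 was at 74.9 and 21.5 FPKM, the lipopolysaccharide-binding protein gene Lbp at 13.7 and 3.9 FPKM, its partner Cd14 at 9.06 and 1.77 FPKM and complement factor B (Cfb) at 11.9 and 3.23 FPKM. The pentraxin Ptx3 was the lower one (0.8 and 3.22 FPKM). The liver genes Crp, Apcs, Fga, Fgb, Fgg, Itih1, Serpina1a, A2m, Hamp and Hamp2 were listed at 0 in both libraries. The metallothioneins Mt1 (1116 and 1410 FPKM) and Mt2 (1513 and 2283 FPKM), which are acute-phase genes in liver, were inside the rule on the lower side. Of 14 relatives of the 9 genes by family, 7 were above the floor, 4 higher and 2 lower, beside the same shares over all genes. Their median log2 ratio was 1.79 over the 7 and -0.09 over all with a value above 0 in either library. The lipocalin Apod was higher (81.6 and 22.8 FPKM), while the lipocalins Ptgds (64 and 172 FPKM) and Rbp4 (6.35 and 25.4 FPKM) were lower.

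Neighbouring genes were read beside the 9. Taking the 2 nearest protein-coding genes on each side of each of the 9 genes, 29 other genes were met, of which 2 were higher, 0 lower, 15 inside the 2-fold rule and 12 under the floor and so not callable, where 7.59% of all callable genes were higher. The 2 were Reg1 and Tph1. Tph1, the tryptophan hydroxylase gene of serotonin synthesis, was at 2.71 FPKM in the library labelled KO and listed at 0 in the WT-labelled library. The neighbours of Orm1 had the lower value in the library labelled KO as Orm1 did, Col27a1 at 2.09 and 4.98 FPKM beside the orosomucoid genes, with Kif12 (0.0213 FPKM and listed at 0) as the exception. Ptges2, 7.64 kb from Lcn2, was at 18.5 and 18.1 FPKM, and Txnl4b, 1.08 kb from Hp, at 5.4 and 8.65 FPKM. No annotated gene overlaps any of the 9.

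Genes with the most similar pair of levels were found by distance in log2(FPKM + 1) over the 2 libraries, which is a likeness over only 2 points. Nearest to Saa3 were Rptn (156 and 0.257 FPKM in the libraries labelled KO and WT, distance 0.32) and Sprr2f (240 FPKM and listed at 0, distance 0.39), both cornified envelope genes. Nearest to Lcn2 were the cytokine genes Il1f6 (distance 0.19) and Il33 (distance 0.45). Aqp3 (526 and 107 FPKM) and Ly6g6c (471 and 116 FPKM) were nearest to Hp, and Fam83c and Cxxc5 to Orm1 at distances of 0.02 and 0.03. Fes and Ippk were nearest to Pglyrp1, and Rgag4 and Kcnt1 to Saa2.

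The authors' deposited table holds a comparison of the same libraries, which had no replicates either. Of the 9 genes, 7 were tested in the authors' deposited table and 0 had a q-value of at most 0.05, against 0.616% of all 15589 genes tested there. Hp had p = 0.00095 and q = 0.114 in the authors' deposited table, and Lcn2 had p = 0.00135 and q = 0.145. Saa3, with the largest ratio, had p = 0.16915 and q = 0.999 in the authors' deposited table, and Reg3g p = 0.00715 and q = 0.373. The order of p-values there was thus not the order of the ratios.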

How the data were processed

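Whole skin was sequenced in 1 library per genotype, and groups were taken from the genotype labels. TRIzol extraction and a directional library kit were used, per the labels' protocols; the sources used here do not say whether counting used strand. The submitters' processing notes name cutadapt 1.9.1, HISAT2 2.0.4 and Cufflinks 2.2.1 and the build GRCm38. Per the file headers, the authors deposited FPKM per gene and library, with the p-value and q-value of their own comparison, in the columns of a Cuffdiff table. A deposited sheet gives the read count of each library and the fraction of reads aligned. Neither the authors' annotation release nor their treatment of multi-mapping reads is stated in those sources.

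The measure was the log2 ratio of (FPKM + 1), KO-labelled over WT-labelled library, with a floor of 1 FPKM in at least 1 library and a 2-fold rule; the pseudocount understates differences of low genes. Positions, transcript lengths and exons came from GENCODE mouse release 21, which held 43831 of the 44166 gene identifiers, written 1-based. FPKM times transcript length, less 260 bases in the library labelled KO and 230 in the library labelled WT, fell near whole steps in genes with 1 transcript of at least 500 bases (81.4% of 2263 and 80.4% of 2132 low values within 0.25 of a step, where 50% would by chance). Steps gave the estimated fragments, using each gene's longest transcript tagged CCDS. Ratio intervals are exact binomial (Clopper-Pearson) and level intervals exact Poisson, both at 95%, and no p-value was computed. Since a 0 may mean a failed estimate, genes at 0 are described as listed at 0 and given no fold. Coding sequences were aligned globally with Biopython 1.88, and other work used Python 3.11.15, numpy 2.4.6, pandas 2.3.3, scipy 1.17.1 and matplotlib 3.10.9. The code was tested on simulated data.

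The 9 genes, 6 lists and 5 marker lists were chosen with earlier results of these data known. Named genes are the 9, Rnf31, list members past the rule or at 0, and the 2 nearest genes in level; others were named after their values were seen. The alternatives were a pseudocount of 0.1, 2 other scalings, no floor, a floor of 5 FPKM and a 4-fold rule.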

Additional observations from a re-analysis of the deposited data

How the results depend on the processing

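The 5 genes called higher stayed 5 with a pseudocount of 0.1, with no floor and with scaling by the median of ratios. They were 4 without the 50 most abundant genes or with a floor of 5 FPKM, where Saa2 left the call, and 3 (Saa3, Lcn2 and Hp) under a 4-fold rule. None of the 9 genes changed its side of 0 under the other pseudocount or scalings. Log2 ratios ranged from 7.29 to 9.48 for Saa3, 4.90 to 5.81 for Lcn2, 2.13 to 2.35 for Hp, 1.32 to 1.62 for Pglyrp1, 0.96 to 2.44 for Saa2 and -0.96 to -0.74 for Orm1. Those of Saa1 (0.65 to 2.79) and Reg3g (0.94 to 3.41) were set by the pseudocount. Over all genes, 1085 were lower with a pseudocount of 0.1 and 360 with a floor of 5 FPKM, and the 4-fold rule left 297 higher and 49 lower. The 4-fold rule also left 1 of the other acute-phase genes, 2 of the relatives, 0 receptor subunits, 1 mediator and 0 receptors and partners higher. A pseudocount of 0.1 made 4 receptor subunits higher, and a floor of 5 FPKM left 2 receptors and partners higher. With no floor, which admits every gene above 0 in either library, the median of the relatives turned to -0.09, that of the cytokines was 0.84 in place of 4.07 and that of the other acute-phase genes 0.26 in place of 1.19. The cytokine median was 5.32 with a pseudocount of 0.1, and a floor of 5 FPKM brought the relatives to 0.43 and the receptors and partners to -0.02 in place of 0.55. No paired analysis was possible because each genotype has 1 library, and for the same reason no library could be left out. Depth limits Saa1, Saa2, Reg3g and Itih4, which rest on about 10 fragments or fewer per library with the coding transcript (up to 50 with the longest one), and the lower level of Saa3, which rests on about 1.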

Other observations

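The serpin A3 family, to which Serpina3n belongs, was looked at after its values were seen. Of the 11 Serpina3 genes, 8 were above the floor, 4 of them higher and 1 lower in the library labelled KO. Over all genes above the floor, 7.59% were higher and 4.09% lower. Of the higher ones, Serpina3g, Serpina3f and Serpina3m passed the floor through the library labelled KO alone. Serpina3b, the lower one, passed it through the library labelled WT alone. Beside Serpina3n, Serpina3g was at 20.8 FPKM in the library labelled KO and 0.487 FPKM in the library labelled WT, a ratio of 42.6 (25.2 to 86.3), and Serpina3f was at 3.61 and 0.132 FPKM. Serpina3b, in the same cluster on chromosome 12, was at 0.123 FPKM in the library labelled KO and 6.5 FPKM in the library labelled WT, a ratio of 0.019 (0.00541 to 0.0521). Serpina3c, which was at 9.02 and 8.16 FPKM, lay inside the 2-fold rule. These genes are close copies, and the split of reads among them is uncertain.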
